A study of Mus musculus with 10 samples.

Results

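The 5 transcription factor genes that define the thyroid follicular lineage were followed tumour by tumour: Pax8, Nkx2-1, Foxe1, Hhex and Glis3. They were found by their exact gene symbol in the platform annotation, and each of the 5 genes had 1 probe set, so 5 of the 19938 genes measured on the array are described. The arrays were Affymetrix whole-transcript arrays, which read a transcript along its whole length, and each held total RNA of 1 mouse thyroid tumour. The 5 anaplastic thyroid carcinomas (ATC) had the genotype TPOCreER, BrafV600E and p53 -/-. The 5 papillary thyroid carcinomas (PTC) had TPOCreER and BrafV600E without the p53 deletion. Both groups therefore share the thyroid peroxidase promoter driving a tamoxifen-dependent Cre recombinase and the Braf allele with the V600E change, and both are on a mixed C57BL/6 and 129SvJae background. No array of normal thyroid is among the samples. Every ATC and no PTC lacks p53, so tumour type and p53 genotype cannot be told apart. Whether each tumour came from its own animal is not stated, so p-values measure the spread between these tumours only. Ages are not given.

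All values are probe set intensities as the authors deposited them, read as log2 from their range, differences are ATC minus PTC, and means are given ± SD with n = 5 tumours in each group. A gene was called when its adjusted p was under 0.05 (limma, Benjamini-Hochberg over all 19938 genes). By that rule 21.2% of all genes were called, 9.72% lower and 11.5% higher in ATC. ATC replicate 5 stood apart, with a lower quartile of 6.02 (6.10 to 6.19 on the other arrays), an upper quartile of 8.72 (8.57 to 8.64) and the lowest array weight (0.375). Values without it are given wherever a result of a lineage factor changes with it.

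In the embryonic mouse thyroid bud, Nkx2-1, Pax8, Foxe1 and Hhex are present together, and no other tissue is known to combine them. Nkx2-1 and Hhex are homeodomain proteins, Pax8 binds DNA through a paired domain, and Foxe1 is a forkhead protein. In the mature gland they keep the genes of thyroid hormone synthesis active, such as Tg and Slc5a5. Glis3, a zinc finger protein, acts below the thyrotropin receptor in mice and is needed for the iodide transport genes.

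Hhex and Glis3 fell in ATC, and Pax8, Nkx2-1 and Foxe1 did not pass the test. Hhex was 2.37-fold lower and Glis3 2.16-fold lower, with all 5 ATC tumours below all 5 PTC tumours for each. Pax8 was 2.02-fold lower on average, slightly less than these 2 genes, with a wide spread among the ATC tumours. Nkx2-1 was 1.30-fold lower and Foxe1 1.17-fold lower, on average. Of the 5 genes, 2 were called lower and 0 higher, beside 9.72% of all genes called lower. For 2 of the 5 genes the groups did not overlap, with ATC lower, beside 7.74% of all genes. In whole tumour RNA, fewer cells of a type and less RNA per cell cannot be told apart.

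The stretches before the transcription starts of the members are shown first, to let the composition of the 2 genes that passed the test, Hhex and Glis3, be compared with that of the others. The sequences are from RefSeq on build GRCm38.p6, run 5′ to 3′ on the gene's own strand, cover the 250 bases before the start, and have CpG dinucleotides in capitals. Foxe1 is named only.
Hhex, chr19:37434591-37434840, plus strand: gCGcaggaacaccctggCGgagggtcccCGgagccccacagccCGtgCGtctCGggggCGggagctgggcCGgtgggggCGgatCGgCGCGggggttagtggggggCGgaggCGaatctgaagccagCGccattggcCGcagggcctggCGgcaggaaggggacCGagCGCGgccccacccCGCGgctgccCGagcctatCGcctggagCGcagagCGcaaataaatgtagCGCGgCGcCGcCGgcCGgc
Glis3, chr19:28680078-28680327, minus strand: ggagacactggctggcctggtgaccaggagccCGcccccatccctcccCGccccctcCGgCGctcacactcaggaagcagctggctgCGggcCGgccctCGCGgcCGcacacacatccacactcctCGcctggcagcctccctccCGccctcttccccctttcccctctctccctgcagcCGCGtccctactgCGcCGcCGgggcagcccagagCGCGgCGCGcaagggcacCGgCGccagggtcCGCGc
Pax8, chr2:24475600-24475849, minus strand: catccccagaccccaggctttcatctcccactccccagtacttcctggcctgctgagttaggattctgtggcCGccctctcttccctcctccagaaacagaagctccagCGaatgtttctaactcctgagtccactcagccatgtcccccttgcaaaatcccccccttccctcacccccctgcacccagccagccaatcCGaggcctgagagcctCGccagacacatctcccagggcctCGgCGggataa
Nkx2-1, chr12:56536909-56537158, minus strand: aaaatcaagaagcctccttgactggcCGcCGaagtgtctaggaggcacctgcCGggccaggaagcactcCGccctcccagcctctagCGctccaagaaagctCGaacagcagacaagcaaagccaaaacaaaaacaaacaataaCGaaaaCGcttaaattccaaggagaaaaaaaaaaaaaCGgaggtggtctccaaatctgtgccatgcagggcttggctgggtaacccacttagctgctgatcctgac

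The stretches of Hhex and Glis3, which both lie on chromosome 19, were 76.0% and 75.6% G and C. They held 32 and 24 CpG dinucleotides. Those of Pax8 and Nkx2-1 were 60.4% and 50.8% G and C and held 6 and 9. Among 32851 such stretches of mouse genes, the median was 52.4% G and C with 6 CpGs, and the upper decile began at 69.2% and 25 CpGs. The stretches of Hhex and Glis3 were thus richer in G and C than those of Pax8 and Nkx2-1. This describes 4 sequences and was not tested against the expression change. Short motifs of the factors were searched on both strands. CAAGTG of NK2 homeodomain proteins such as Nkx2-1 occurs in 11.6% of the 32851 stretches, CGTGAC of paired domain proteins such as Pax8 in 6.93%, TAAACA of forkhead proteins such as Foxe1 in 12.0%, and TGGGGGGT of the GLIS proteins in 1.36%. None of these letters was found in the 4 stretches, which says nothing of the factors' binding elsewhere.

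**Figure D1:**
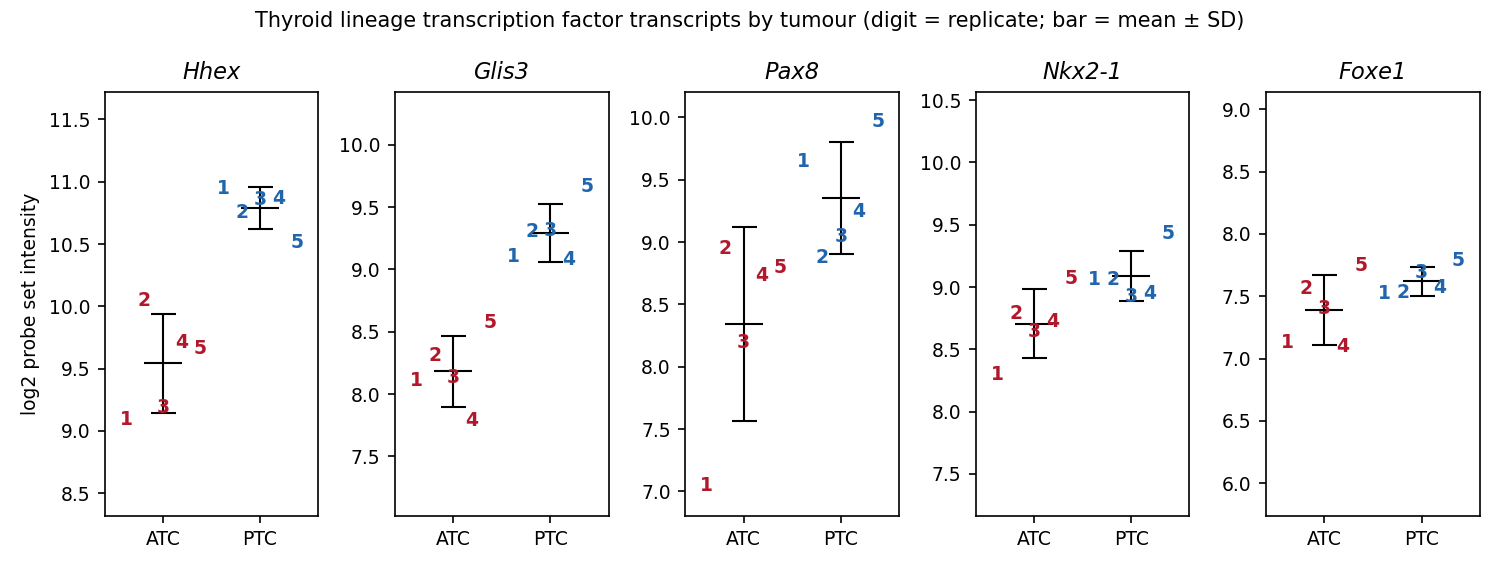
Log2 probe set intensity (vertical axes, each spanning the same width) of the 5 lineage factor genes in ATC (red) and PTC (blue) tumours; each digit is the replicate number of 1 tumour, and bars are the mean ± SD of 5 tumours. Hhex and Glis3 have no overlap between the groups, Pax8 reaches down to 7.04 in ATC replicate 1, and PTC replicate 5 is the highest PTC tumour for 4 genes but the lowest for Hhex.

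Hhex, a homeodomain repressor that the thyroid bud shares with liver, endothelium and B cells, had 9.09, 10.05, 9.19, 9.71 and 9.66 in ATC replicates 1 to 5, against 10.95, 10.75, 10.86, 10.87 and 10.51 in PTC replicates 1 to 5. The groups did not overlap, ATC replicates 1 and 3 were lowest and ATC replicate 2 was nearest to PTC. The mean was 9.54 ± 0.40 in ATC and 10.79 ± 0.17 in PTC. The difference was −1.25 (95% interval −1.62 to −0.87, limma adjusted p = 0.000628), lower than that of all but 1.73% of genes. Leaving out any 1 array gave −1.37 to −1.13 (adjusted p 0.000202 to 0.00265).

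Glis3 had 8.11, 8.31, 8.13, 7.79 and 8.57 in ATC replicates 1 to 5, against 9.10, 9.31, 9.31, 9.08 and 9.66 in PTC replicates 1 to 5. ATC replicate 5 was the highest ATC tumour and still lay below the lowest PTC tumour, and the spread was alike in both groups. The mean was 8.18 ± 0.29 in ATC and 9.29 ± 0.23 in PTC. The difference was −1.11 (95% interval −1.44 to −0.78, limma adjusted p = 0.000573). With any 1 array left out it was −1.21 to −1.01 (adjusted p 0.000604 to 0.00242).

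Pax8, the paired domain factor that activates Tg and Slc5a5, had 7.04, 8.95, 8.19, 8.73 and 8.79 in ATC replicates 1 to 5, against 9.65, 8.87, 9.04, 9.25 and 9.97 in PTC replicates 1 to 5. Only ATC replicate 2 reached into the PTC range, where PTC replicate 2 was lowest, and ATC replicate 1 lay far below all others. The mean was 8.34 ± 0.78 in ATC and 9.35 ± 0.45 in PTC, and the 95% interval of the difference ran from −1.76 to −0.26. It missed the threshold (limma adjusted p = 0.0564), passed without ATC replicate 2 (−1.17, adjusted p = 0.0391), and was −0.69 without ATC replicate 1 (the smallest with 1 array left out).

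Nkx2-1, which also runs the surfactant genes of lung and is made in the calcitonin cells of the thyroid, had 8.30, 8.78, 8.64, 8.72 and 9.07 in ATC replicates 1 to 5, against 9.06, 9.06, 8.93, 8.95 and 9.43 in PTC replicates 1 to 5. ATC replicate 5 alone lay within the PTC range. The mean was 8.70 ± 0.28 in ATC and 9.09 ± 0.20 in PTC. The difference had a 95% interval of −0.69 to −0.08 (limma adjusted p = 0.0745) and passed without ATC replicate 5 (−0.47, adjusted p = 0.0264). Foxe1, the forkhead factor of thyroid bud migration, had 7.13, 7.56, 7.40, 7.09 and 7.75 in ATC replicates 1 to 5, against 7.52, 7.53, 7.69, 7.57 and 7.78 in PTC replicates 1 to 5. ATC replicates 1, 3 and 4 lay below every PTC tumour and the other ATC tumours lay among them. Its mean was 7.39 ± 0.28 in ATC and 7.62 ± 0.11 in PTC (95% interval −0.51 to 0.04, limma adjusted p = 0.230). The Foxe1 probe set was at the middle of all genes in brightness (percentile 49.9, against 75.7 to 92.3 for the other 4), and detection above background is not given.

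Whether the 5 genes fell unequally was asked with the log2 ratio of each pair within a tumour, compared between the groups by a two-sided exact permutation test over all splits of the tumours and adjusted over the 10 pairs. Hhex and Glis3 each fell more than Nkx2-1 and Foxe1 in measured intensity. Detection above background is not given, which limits the ratios of Foxe1, the dimmest of the 5. The ratio of Nkx2-1 to Hhex was higher in ATC by 0.86 (exact p = 0.0159, adjusted p = 0.0397), and that of Nkx2-1 to Glis3 by 0.73 (exact p = 0.00794, adjusted p = 0.0265). The ratio of Foxe1 to Hhex was higher by 1.01 and that of Foxe1 to Glis3 by 0.88 (exact p = 0.00794 and adjusted p = 0.0265 for both, the smallest exact p this design allows). For the last 3 of these ratios the ATC and PTC tumours did not overlap. Pax8 could not be set apart from any other member: its ratio differed by −0.63 to Nkx2-1 and by −0.78 to Foxe1 (exact permutation test, adjusted p = 0.0794 for both), by 0.23 to Hhex (adjusted p = 0.605) and by 0.10 to Glis3 (adjusted p = 0.817). The ratio of Hhex to Glis3 differed by −0.13 (adjusted p = 0.661) and that of Nkx2-1 to Foxe1 by −0.15 (adjusted p = 0.283). With 1 array left out the 4 called ratios were 0.63 to 1.13. The calls against Hhex ended without ATC replicate 1, 3 or 5 or PTC replicate 1, 2, 3 or 4, and those against Glis3 without PTC replicate 2 or 3 (adjusted p 0.0529 to 0.0595).

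**Figure D2:**
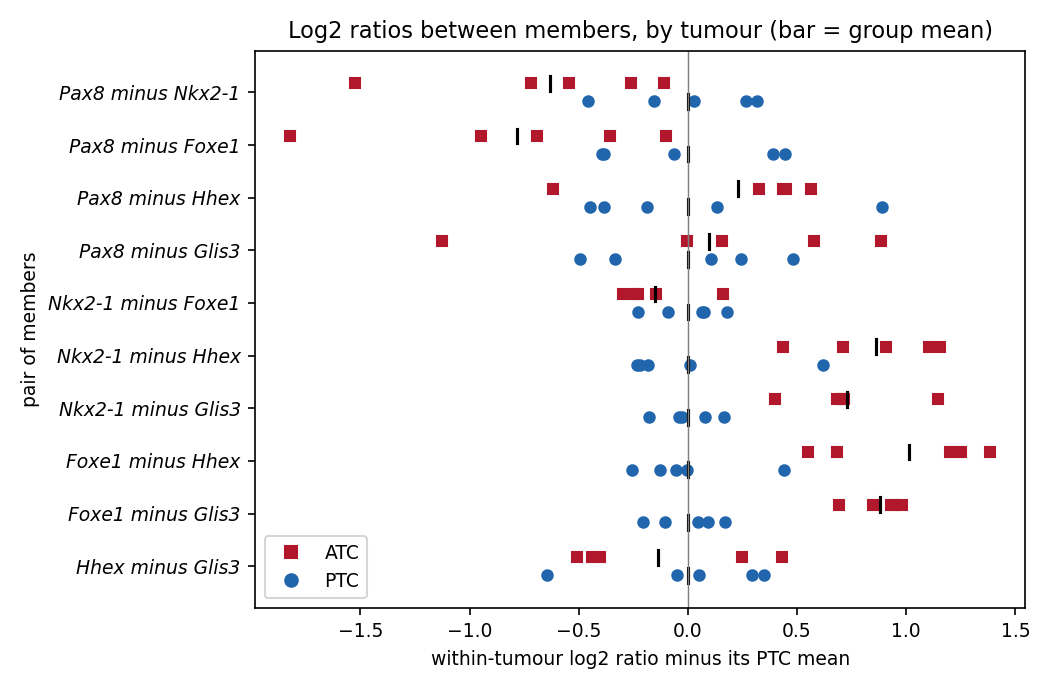
Within-tumour log2 ratio of each of the 10 pairs of lineage factor genes, minus its mean in PTC (horizontal axis); each red square is an ATC tumour, each blue circle a PTC tumour and each black bar a group mean. The ratios of Nkx2-1 and Foxe1 to Hhex and Glis3 shift by 0.73 to 1.01 in ATC, whereas the ratio of Hhex to Glis3 shifts by −0.13.

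The tumours differed among themselves in a way that was not the same for all 5 genes. PTC replicate 5 had the highest Pax8, Nkx2-1, Foxe1 and Glis3 of the PTC tumours and the lowest Hhex. Among the ATC tumours, replicate 1 was lowest for Pax8, Nkx2-1 and Hhex, and replicate 4 was lowest for Foxe1 and Glis3. ATC replicate 5 was highest for Nkx2-1, Foxe1 and Glis3, and ATC replicate 2 for Pax8 and Hhex.

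Deviations of the tumours from their group means were correlated for the 10 pairs of members over 10 tumours, with exact permutation within groups and adjustment over the pairs. Foxe1 and Glis3 deviated together (Pearson r = 0.860, exact p = 0.00118, adjusted p = 0.0118; Spearman rho = 0.879, adjusted p = 0.0212). The correlation was 0.882 without the 2 tumours farthest from the Foxe1 median (ATC replicates 1 and 4), 0.777 without ATC replicate 5 and 0.749 without replicate 5 of both groups. Pax8 and Nkx2-1 also did so (Pearson r = 0.840, exact p = 0.00604, adjusted p = 0.0302; Spearman rho = 0.879, adjusted p = 0.0212), with r = 0.417 without ATC replicate 1 and PTC replicate 5, the tumours farthest from the Pax8 median, so the relation rests on these 2 as a pair. It was 0.872 without ATC replicate 5 and 0.904 without replicate 5 of both groups. The other 8 pairs did not pass (Pearson r −0.09 to 0.72, exact permutation adjusted p 0.114 to 0.853). Hhex and Glis3, the pair that fell in every ATC tumour, had r = −0.09 (adjusted p = 0.853).

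The genes of thyroid hormone production, which the 5 factors are known to serve, were lower in part. Of 16 measured genes 7 fell, beside 9.72% of all genes called lower, while 0 rose and 9 did not pass. The median difference was −0.57 beside −0.02 over all genes. Cdh16, a cadherin of kidney and thyroid that Pax8 controls, had 7.29, 7.72, 7.07, 7.80 and 7.14 in ATC replicates 1 to 5, against 8.74, 8.59, 8.93, 8.42 and 9.28 in PTC replicates 1 to 5 (difference −1.39, limma adjusted p = 0.000543). The groups did not overlap, and they did not for the potassium channel gene Kcnq1 and the deiodinase gene Dio2 either. Kcnq1 averaged 7.21 ± 0.14 in ATC and 8.12 ± 0.12 in PTC (limma adjusted p = 0.000123). Dio2 averaged 6.71 ± 0.09 in ATC and 7.49 ± 0.23 in PTC (limma adjusted p = 0.000618).

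The other 4 genes called lower were close to the threshold. They were the iodotyrosine deiodinase gene Iyd (−2.33), the anion transporter genes Slc26a7 (−1.96) and Slc26a4 (−0.69), and the thyrotropin receptor gene Tshr (−1.67), with limma adjusted p-values of 0.0235 to 0.0473. Leaving out 1 array ended the call in 9 cases for Slc26a4, 7 for Tshr, 6 for Iyd and 5 for Slc26a7. The probe set of Slc26a4 was dim (brightness percentile 14.2). Thyroglobulin, Tg, had the widest gap and did not pass (−2.76, limma adjusted p = 0.0583). Its probe set read 7.17, 12.00, 6.84, 11.48 and 10.23 in ATC replicates 1 to 5, against 12.72, 11.28, 12.08, 12.58 and 12.88 in PTC replicates 1 to 5, so that 2 of the 5 ATC tumours lay within the PTC range. Tg passed without ATC replicate 2 (−3.38, adjusted p = 0.0194) or ATC replicate 4 (−3.25, adjusted p = 0.0337), and under both filters on dim genes (lowest adjusted p = 0.0422). Slc5a5, the iodide transporter gene, differed by −0.46, and by −0.22 without PTC replicate 5. The deiodinase gene Dio1 differed by −0.40, and the dual oxidase genes Duox2 and Duox1 and their maturation factors Duoxa2 and Duoxa1 by −0.28, −0.05, −0.24 and −0.22 (limma adjusted p 0.0955 to 0.762). Duoxa1 was nevertheless lower in every ATC tumour than in any PTC tumour. Kcne2, the partner subunit of Kcnq1, differed by −0.16 and the thyroid hormone receptor gene Thrb by −0.16, and Thrb by −0.32 without ATC replicate 1 and −0.0033 without ATC replicate 5. The count of genes called lower was 3 without ATC replicate 1 or 5 or PTC replicate 4 or 5, and 4 without ATC replicate 3 or PTC replicate 1.

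**Figure D3:**
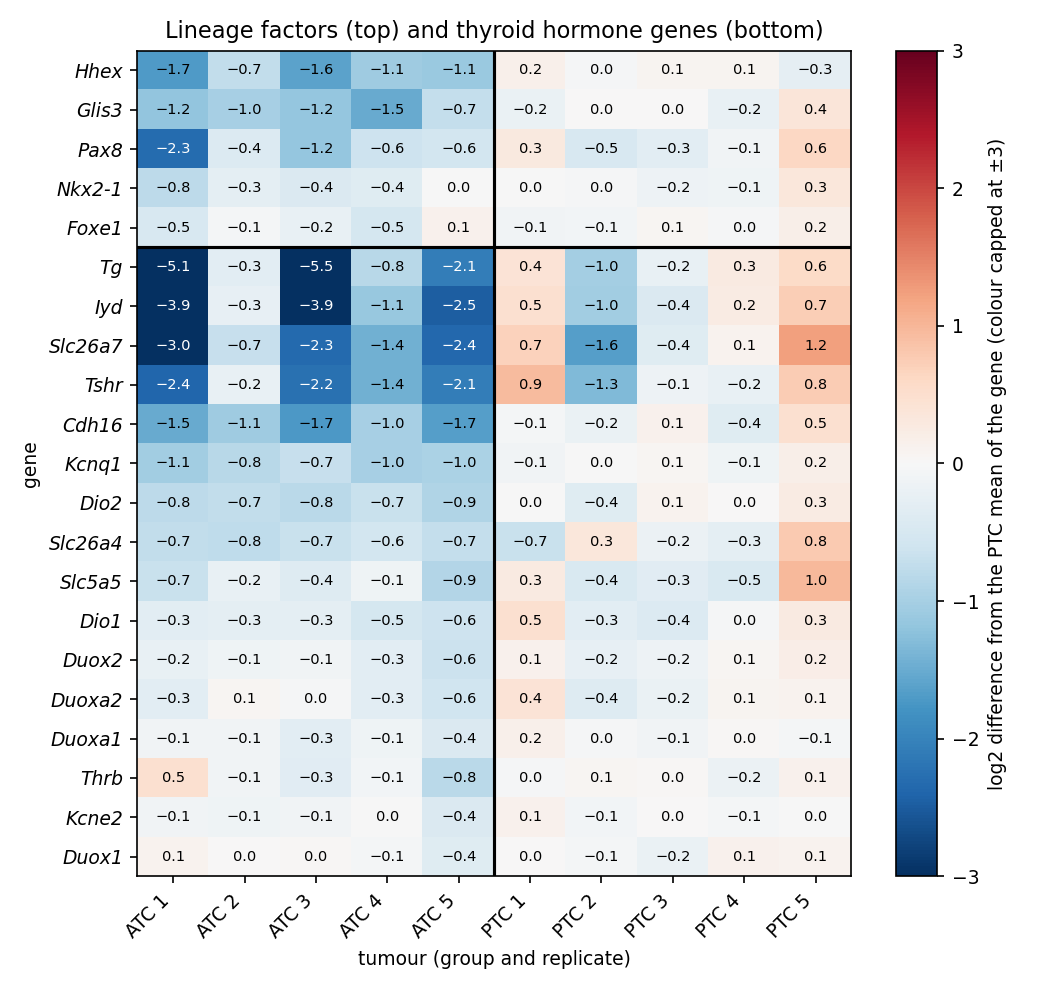
Log2 difference of each tumour (columns, ATC left and PTC right of the line) from the PTC mean of the gene, for the 5 lineage factor genes (above the line) and 16 thyroid hormone genes (below it, ordered by mean difference); blue is lower and red higher. Cells of Hhex and Glis3 are blue in all 5 ATC tumours, whereas the cells of Tg and Iyd are pale in ATC replicate 2 and dark in ATC replicates 1 and 3.

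Hhex ranked the ATC tumours, high to low, as replicates 2, 4, 5, 3 and 1, and Iyd, Tshr and the lung genes Sftpd, Napsa and Lamp3 ranked them in the same order. The mean of 14 epithelial genes did so too, at 8.89, 8.46, 8.05, 7.60 and 7.44 in these tumours. Across the 10 tumours, deviations of the members were correlated with those of the 16 thyroid hormone genes and of 14 genes that Nkx2-1 controls in lung, 150 relations in all. Only Hhex with Lamp3 passed the adjustment (Pearson r = 0.876, exact permutation p = 7e-05, the smallest within-group permutation can give, adjusted p = 0.0105). Spearman's rho was 0.915 (adjusted p = 0.078), and r was 0.853 without ATC replicates 1 and 3. Pax8 had r = 0.785 with Tg, 0.800 with Iyd and 0.789 with Slc26a7 (exact permutation p 0.00521 to 0.0091, adjusted p 0.154 to 0.195), and r of 0.813, 0.829 and 0.795 without ATC replicate 1 and PTC replicate 5. Pax8 had r = 0.811 with the lung gene Sftpb and Hhex had r = 0.854 with the lung gene Slc34a2 (exact permutation adjusted p = 0.073 for both). Hhex had r = 0.843 with Tg and 0.775 with Iyd (exact permutation adjusted p = 0.324 and 0.42), and 0.31 with each without ATC replicates 1 and 3. Pax8 had r = 0.557 with Slc5a5 and 0.473 with Cdh16 (exact permutation adjusted p = 0.412 and 0.602). Glis3 had r = 0.047 with Tg and 0.012 with Iyd (exact permutation adjusted p = 0.974 and 0.992). Over the 16 thyroid hormone genes the median r was 0.34 for Pax8, 0.22 for Nkx2-1, 0.01 for Foxe1, −0.04 for Hhex and 0.01 for Glis3.

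Of the 14 genes that Nkx2-1 is known to control in lung, 8 fell, 0 rose and 6 did not pass (median −0.59). Over all genes 9.72% were called lower. Nkx2-1 itself did not pass. The largest differences were those of the lysosomal membrane protein gene Lamp3 (−4.31, limma adjusted p = 0.00106) and the surfactant protein genes Sftpd (−2.74, adjusted p = 0.00265) and Sftpb (−2.65, adjusted p = 0.0128). Sftpd read 7.06, 9.95, 7.07, 9.22 and 8.48 in ATC replicates 1 to 5, against 11.05, 11.05, 10.95, 11.09 and 11.37 in PTC replicates 1 to 5. No ATC tumour reached the PTC range, and ATC replicates 1 and 3 were lowest.

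Cofactors of the lineage proteins went both ways, with 2 of 12 higher, 2 lower and 8 not passing (median 0.07). Over all genes 11.5% were called higher and 9.72% lower, so counts this small do not set the list apart. Wwtr1, which encodes TAZ, a coactivator known to bind Pax8 and Nkx2-1, rose by 0.79 (limma adjusted p = 0.00275). It had 9.64, 9.41, 10.26, 9.90 and 9.64 in ATC replicates 1 to 5, against 9.05, 8.84, 8.94, 8.88 and 9.18 in PTC replicates 1 to 5, with no overlap. In 3 of the 12 cofactor genes every ATC tumour was higher than every PTC tumour, beside 9.13% of all genes. Smad3, a TGF-beta signal transducer reported to bind Pax8, rose by 0.49 (limma adjusted p = 0.0128). Of the nuclear factor I genes, Nfia fell by 1.18 (limma adjusted p = 0.00746) and Nfib fell by 0.38 (limma adjusted p = 0.0266), a call that ended without ATC replicate 1, 3 or 5 or PTC replicate 2 or 3. Yap1 and Ep300 differed by 0.09 and 0.13.

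Among 17 other regulators of thyroid and pharyngeal development, 1 rose, 2 fell and 14 did not pass (median −0.05). These counts do not set the list apart from all genes, of which 11.5% were called higher and 9.72% lower. The fibroblast growth factor receptor gene Fgfr2 fell by 1.39 (limma adjusted p = 0.0015) and the endoderm forkhead gene Foxa2 fell by 0.49 (limma adjusted p = 0.00449). Fgf10, a mesenchymal ligand of that receptor, rose by 1.30 (limma adjusted p = 0.0262), a call that ended without ATC replicate 1 or PTC replicate 2, 3, 4 or 5. Isl1, Eya1 and Tbx1 differed by −0.21, 0.30 and −0.08 and did not pass.

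Of 19 family members of the 5 factors, 1 rose, 2 fell and 16 did not pass (median −0.03). These counts do not set the list apart from all genes, of which 11.5% were called higher and 9.72% lower. Gli3, a zinc finger relative of Glis3 in hedgehog signalling, rose by 1.45 (limma adjusted p = 0.000453). It read 8.86, 8.60, 8.77, 8.27 and 9.47 in ATC replicates 1 to 5, against 7.66, 7.29, 7.22, 7.19 and 7.37 in PTC replicates 1 to 5, so Gli3 was higher in every ATC tumour while Glis3 was lower. Nkx2-2 fell by 0.53 (limma adjusted p = 0.0096), and Gli1 fell by 0.20 (limma adjusted p = 0.0442), a call that ended without any 1 of the arrays other than ATC replicate 4. Pax6 differed by 0.43 and did not pass (limma adjusted p = 0.220). Other relatives did not pass either: Pax2 and Pax5 differed by −0.06 and −0.18, Nkx2-4 by 0.02, Foxe3 by 0.04, and Glis1 and Glis2 by −0.06 and 0.24. The 9 liver and beta cell genes measured mark tissues where Hhex or Glis3 also act. Of these, 0 were called by limma and 1 had an unadjusted p under 0.05. The groups were separate for 0 of the 9, beside 7.74% of all genes with ATC lower and 9.13% with ATC higher. All 9 were below the middle of all genes in brightness (7.50), and 5 were below percentile 25 (6.53). Detection above background is not given, so the lack of calls among these dim genes says little. The largest differences were those of Afp (0.17), Ins2 (−0.16) and Neurog3 (−0.10), and Afp passed under 4 of the 8 other settings that tested it (limma adjusted p 0.0374 to 0.0496).

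**Figure D4:**
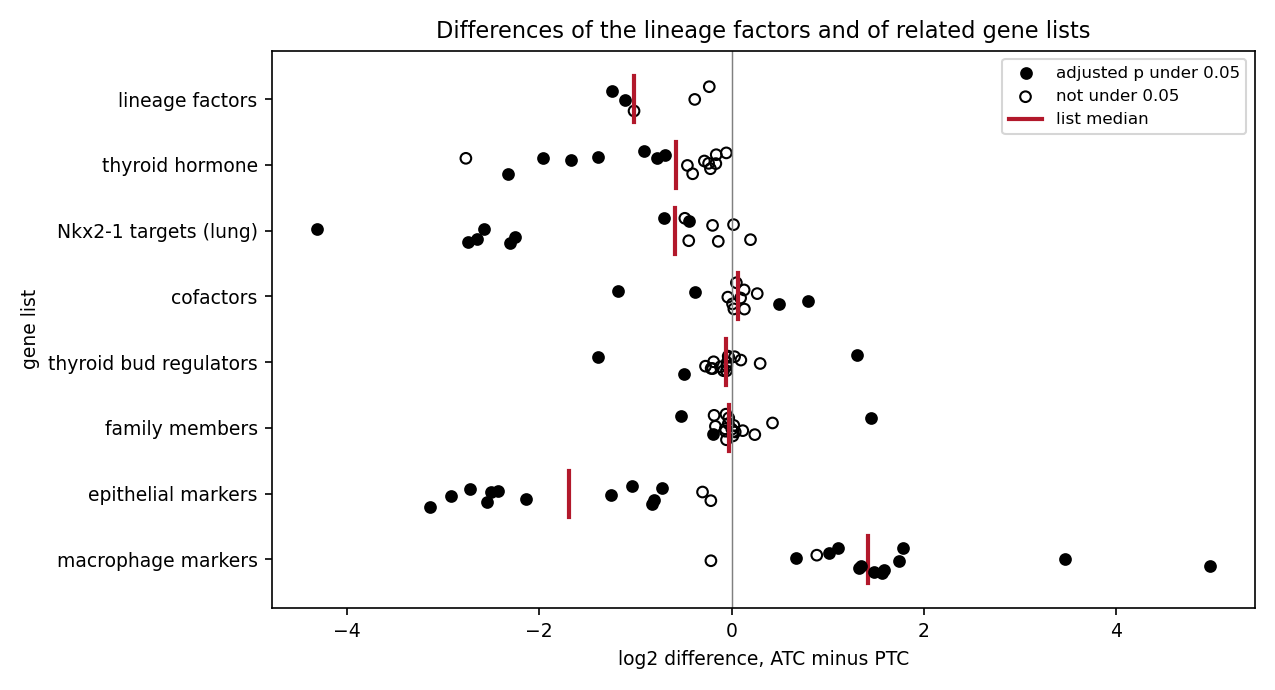
Log2 difference, ATC minus PTC (horizontal axis), of each gene in 8 lists; filled points passed an adjusted p of 0.05, open points did not, red bars are list medians and vertical jitter has no meaning. The lineage factors all lie left of 0 with a median of −1.01, between the epithelial markers (median −1.69) and the cofactors, bud regulators and family members (medians −0.05 to 0.07).

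Markers of the cells in these tumours moved as well, beside 9.72% of all genes called lower and 11.5% called higher. The epithelial markers fell in 12 of 14 cases (median −1.69), led by Krt7 (−3.14), Krt19 (−2.92) and Epcam (−2.73), and their mean per tumour was 7.44 to 8.89 in ATC and 9.72 to 9.85 in PTC. Macrophage markers rose in 12 of 14 cases (median 1.42), led by Vsig4 (4.98), Cd163 (3.47) and Msr1 (1.79), with a mean of 10.38 to 10.97 in ATC and 8.71 to 9.34 in PTC. Each lineage factor gene was also set against the epithelial mean of the same tumour, a measure chosen after seeing the data. All 5 were higher in ATC on this measure, 3 of them past the threshold. The epithelial mean fell more than each of the 5 genes, so the direction was known beforehand and the p-values are descriptive only. Nkx2-1 was higher by 1.30 and Foxe1 by 1.45 (exact permutation test, adjusted over the 5 genes, p = 0.0198 for both), Hhex by 0.44 (adjusted p = 0.0265), Pax8 by 0.67 (adjusted p = 0.0595) and Glis3 by 0.57 (adjusted p = 0.135). The call of Hhex ended without PTC replicate 2, 3 or 4 (adjusted p 0.0529 to 0.0661), and Pax8 passed without ATC replicate 1 (adjusted p = 0.0397) or PTC replicate 5 (adjusted p = 0.0496). The part of epithelial content in the falls of Hhex and Glis3 was not tested.

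Cells that can also hold these transcripts were examined by their markers, beside 9.72% of all genes called lower. Of 10 endothelial markers 2 fell, Tek and Pecam1, and 0 rose (1 to 4 lower with 1 array left out). The call of Pecam1 ended without ATC replicate 1 or 3 or any 1 PTC array, and under 6 other settings. The means were 8.05 to 8.46 in ATC and 8.32 to 8.83 in PTC. Tek, Kdr and Flt1 differed by −0.67, −0.67 and −0.61, and Kdr and Flt1 did not pass (limma adjusted p = 0.0514 and 0.0535). Of 9 B cell markers 4 fell, led by Fcer2a (−1.07), Cd79b (−0.78) and Vpreb3 (−0.57), with means of 6.42 to 6.71 in ATC and 6.88 to 7.75 in PTC. Both cell types are known to hold Hhex, and their part in its fall was not tested. Of 8 markers of the calcitonin-making C cells, which also hold Nkx2-1, 2 fell, Scg2 (−1.06) and Ret (−0.82). The median difference of the 8 was −0.01 and the highest was 0.34. Chga differed by −1.32 and did not pass (limma adjusted p = 0.215).

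The remaining marker lists moved less evenly, beside 9.72% of all genes called lower and 11.5% called higher. Of 6 parathyroid and 12 skeletal muscle markers, 0 were called by limma and 0 had an unadjusted p under 0.05. Their means were 6.24 to 8.07 in ATC and 6.45 to 8.81 in PTC for parathyroid, and 6.96 to 8.10 in ATC and 6.80 to 8.70 in PTC for muscle. The largest parathyroid differences were those of Pth (−2.83), Chga and Casr (−0.40), and the largest muscle differences those of Pvalb (−1.07), Myh4 (−1.05) and Myh1 (−0.54). T cell markers fell in 3 of 8 cases, led by Cd2 (−1.57), Cd3g (−1.34) and Cd3e (−0.43). Fibroblast markers fell in 4 of 10 cases, with Lum at −2.07, Dcn at −1.35 and Pdgfra at 1.17. The follicular cell markers, drawn from the thyroid hormone genes, fell in 4 of 7 cases. The lowest readings of Hhex, Nkx2-1 and Glis3 were 9.09, 8.30 and 7.79, so these genes were above the middle of all genes (7.50) in every tumour. Pax8 was read above it in every tumour other than ATC replicate 1 (7.04). Foxe1 was read below it in ATC replicates 1, 3 and 4 (7.13, 7.40 and 7.09).

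The genes whose deviations from the group means were most like each member's over the 10 tumours are given as a description, ranked by Pearson r, with no test. Most like Pax8 were Pabpc1l2b, Stat5a, Crip2, Ece1 and Sema4d (r 0.91 to 0.96, and 0.94 to 0.98 without ATC replicate 5). Of these, Crip2, the endothelin-converting enzyme gene Ece1 and the semaphorin gene Sema4d also fell in ATC (differences −0.99, −0.90 and −0.70), beside 9.72% of all genes called lower. The call of Crip2 ended without ATC replicate 1, 3 or 4 or PTC replicate 1, 3, 4 or 5 (adjusted p 0.0505 to 0.0849). Most like Nkx2-1 were P3h3, H6pd, Scarb1, Lrguk and Neurl4 (r 0.95 to 0.97), of which H6pd, which encodes an NADPH-producing dehydrogenase of the endoplasmic reticulum, fell by 0.89.

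Most like Foxe1 were Antxr1, the succinate dehydrogenase gene Sdha, Rnf144a, Fbxo7 and Fancd2 (r 0.94 to 0.97, and 0.89 to 0.97 without ATC replicate 5). Antxr1 and Sdha fell in ATC (−0.84 and −0.42, limma adjusted p = 0.0213 and 0.0313) and Fancd2 rose (0.52, adjusted p = 0.0163). The call of Antxr1 ended without ATC replicate 1 or PTC replicate 3 or 5. That of Sdha ended without ATC replicate 1, 3 or 4 or PTC replicate 3, 4 or 5. Most like Hhex were the mast cell protease genes Mcpt1 and Mcpt2, the anion transporter gene Slc26a9, the epithelial integrin gene Itgb6 and Gng10 (r 0.94 to 0.96). Slc26a9 and Itgb6 fell in ATC (differences −2.69 and −2.78), with no overlap of the groups, and Gng10 rose (0.39), a call that ended without PTC replicate 3 or 5 (adjusted p = 0.052 and 0.0538). Most like Glis3 were Itprid2, Sptlc1, Rundc1, Zbtb5 and Arhgap35 (r 0.95 to 0.97), and none of these 5 passed the test between ATC and PTC. Over all genes 21.2% were called, 9.72% lower and 11.5% higher, so the lack of calls does not set these 5 genes apart. The 5 sets shared no gene.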

How the data were processed

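Per the labels, total RNA of 5 ATC and 5 PTC tumours was measured on 10 Affymetrix arrays. The deposited table holds 35556 probe sets. The log2 scale of the deposited values is inferred from their range (2.79 to 14.15) and array medians (7.25 to 7.34), since no label states it. The authors used Affymetrix Power Tools and limma, per the submitters' processing notes; no versions are named, and how background and probe sets were handled is not stated. The number of arrays limits the precision.

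The platform annotation gave 1 symbol to 21789 probe sets, several to 1621 and none to 12146; 21698 of the first matched GRCm38.p6 by gene identifier for current names. The brightest probe set stood for each of 19938 genes, and listed genes without one are not analysed here. ATC minus PTC was fitted with limma 3.58.1 (R 4.3.3), without covariates or filter, adjusted over all genes. In simulated data, 46%, 92%, 100% and 98% of 50 genes each changed by 0.5, 1, 2 and 3 log2 units were recovered, and 6.15% of 179 calls were false. The simulation changed only these genes, drew genes independently and gave both groups the same spread. In the real data 21.2% of genes were called, and genes such as Pax8 and Tg varied more in ATC, so these shares need not carry over. Python 3.11.15, numpy 2.4.6, pandas 2.3.3 and matplotlib 3.10.9 made tables and figures. The members and the 16 gene lists were chosen with earlier results of these data known. Named were all members and thyroid hormone genes, the 3 largest differences of each other list and the 5 most alike genes per member; others were named after their values were seen. Alternatives were a replicate block, probe set rules, filters, normalizations, variance models, array weights and each array left out.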

Additional observations from a re-analysis of the deposited data

Results flagged for a closer look

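Within the groups of 5 tumours of the 87 named genes, 11 tumours lay far from the other 4 (gap to the nearest tumour over 0.71 of the group's range); chance alone gives about 1 in 20 groups, and 174 groups were examined. PTC replicate 5 was the outlying tumour in 7 of the 11 cases, which are not independent: Scarb1, Lrguk and Rundc1 were named for deviating like Nkx2-1 or Glis3, so the chance rate does not apply to them. It was high for Nkx2-1 (9.43 against 8.93 to 9.06 in the other PTC tumours), for Nfia (10.99 against 10.17 to 10.38), for Ret (8.58 against 7.63 to 7.81) and for 3 genes most like a member, Scarb1 (8.62), Lrguk (5.45) and Rundc1 (7.87). It was low for the macrophage gene Msr1 (9.07 against 10.16 to 10.39). ATC replicate 5 was low for Kcne2 (5.67 against 5.98 to 6.09 in the other ATC tumours) and Cd79b (6.86 against 7.24 to 7.27). ATC replicate 2 was high for Tek (8.38 against 7.73 to 7.89) and Chga (8.92 against 6.99 to 7.35).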

How the results depend on the processing

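Hhex and Glis3 stayed past the threshold under all 10 other settings (−1.31 to −1.21, adjusted p 0.000341 to 0.00658, and −1.15 to −1.07, adjusted p 0.000182 to 0.00588) and without any 1 array. Foxe1 passed under none of 9; the stricter filter on dim genes left it out. Pax8 passed under both filters on dim genes (−1.01 for both, adjusted p = 0.048 and 0.0412) and when quantile-normalized again (−1.06, adjusted p = 0.0481), and was −1.17 to −0.69 with 1 array left out. Nkx2-1 passed when quantile-normalized again (−0.43, adjusted p = 0.0425) and with array weights (−0.36, adjusted p = 0.047), and was −0.47 to −0.28 with 1 array left out. The repeated quantile normalization called 4 of the 5 members, and leaving out 1 array called 2 to 3.

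Replicate numbers gave no clear sign of pairing, which was not tested. Same-numbered deviations correlated at −0.086 to 0.12, and 1 of 5 ATC tumours, replicate 5, matched its own number best. With the replicate number as a block, 2063 genes were higher and 1699 lower (2297 and 1937 without it), Nkx2-1 passed (−0.38, adjusted p = 0.0334), and 3 thyroid hormone genes were called lower. That count was also 3 with array weights or each gene's own variance, and 3 to 7 with 1 array left out.

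With 1 array left out the pair ratios ranged from 0.79 to 1.02 (Nkx2-1 to Hhex), 0.63 to 0.81 (Nkx2-1 to Glis3), 0.92 to 1.13 (Foxe1 to Hhex), 0.83 to 0.93 (Foxe1 to Glis3), −0.95 to −0.52 (Pax8 to Foxe1, which passed without ATC replicate 4) and −0.10 to 0.40 (Pax8 to Glis3, reversed to −0.02, −0.10 and −0.03 without ATC replicate 2, ATC replicate 4 and PTC replicate 2). Signs also turned for genes near 0. Duox1 was 0.0002 with quantile normalization, 0.019 with array weights and 0.023 without ATC replicate 5. Pabpc1l2b was 0.045 with quantile normalization, 0.037 with centring and 0.0078 with array weights, Lrguk 0.0045, Itprid2 0.022 and Sptlc1 0.035 with centring, and Sptlc1 0.0059 with array weights. With 1 array left out these 4 ranged from −0.017 to 0.025, −0.083 to 0.017, −0.044 to 0.0017 and −0.067 to 0.071. The causes were not tested. Signal over background is not given, which limits dim genes such as Foxe1.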
